A study of Homo sapiens with 6 samples.

Results

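The genes described here encode the nuclear part of the mitochondrial respiratory chain and of ATP synthase. They were chosen by symbol among the protein-coding genes of the deposited count table: NDUFA, NDUFB, NDUFC, NDUFS and NDUFV genes, SDHA to SDHD, UQCR genes, CYC1, nuclear COX subunit genes, and ATP5 genes. The rule used names and no measured value, and it found 91 of the 58735 genes in the table. By role, 37 belong to complex I, 4 to complex II, 10 to complex III, 19 to complex IV and 21 to complex V. NDUFA4 and NDUFA4L2 were placed in complex IV, where NDUFA4 was later assigned.

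The respiratory chain passes electrons from NADH and succinate to oxygen and pumps protons across the inner mitochondrial membrane, and ATP synthase uses the returning protons to make ATP. Complexes I, III and IV and ATP synthase combine subunits encoded in the nucleus with a few encoded in mitochondrial DNA, whereas complex II is encoded in the nucleus alone. Nuclear respiratory factor 1 (the NRF1 protein) and the ETS-family factor GABP are known regulators of many of the nuclear genes.

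RNA was sequenced from Ishikawa cells, a human endometrial cancer line, 48 hours after lipofection with a negative-control siRNA (siNC, 3 libraries) or an siRNA directed at TCF19 (siTCF19, 3 libraries). All cells were grown in DMEM with serum, and the siRNA was the only difference the labels give. The submitters call the libraries experimental triplicates. Separate cultures are not mentioned, and the p-values therefore speak only of the spread among these libraries, which may be technical. Library totals ran from 14680022 to 16244705 counts. TCF19 itself stood at 177, 185 and 177 CPM (counts scaled to library size with TMM factors) in siNC and at 42.7, 35.3 and 39.1 CPM in siTCF19, a log2 fold change of -2.20 ± 0.06 (SE; adjusted p = 6.15e-29). All 8 epithelial markers were measured above the filter, with a summed level of 3025 to 3172 CPM in siNC and 2867 to 2994 CPM in siTCF19; CDH1, KRT19 and MUC1 were called higher and KRT8 and KRT18 lower. Of 12 stromal, endothelial and leukocyte markers, 9 were under 1 CPM, and the list summed to 185 to 186 CPM in siNC and 140.02 to 152 CPM in siTCF19. Most of that sum was COL1A2, which fell from 161 to 101 CPM, while COL1A1 rose from 17.9 to 26.7 CPM and VWF from 5.13 to 15.5 CPM. In bulk RNA, fewer cells of a type and less RNA per cell cannot be told apart.

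Some of the promoters are shown because they carry the letters of the cores that these regulators are known to bind. They were picked by hand among those with a core, and all belong to genes called changed below, lower except for ATP5PD. RefSeq (GRCh38.p14) gave a promoter for 68 of the 91 genes, and the 250 bases before each RefSeq gene start were searched on both strands. These starts can differ from those of the count table. By its gene spans, the UQCRC1 and ATP5F1C stretches lie inside the gene, and the SDHA, SDHB and SDHD stretches reach into it. The NRF1 core was GCGCA followed by any 1 base and then GCGC, and the ETS core was CCGGAAG; no match of one overlapped a match of the other in the stretches printed here. Capitals mark a match on either strand, and each stretch is written along the strand of its gene.
SDHA, complex II flavoprotein, chr5:218139-218319, plus strand: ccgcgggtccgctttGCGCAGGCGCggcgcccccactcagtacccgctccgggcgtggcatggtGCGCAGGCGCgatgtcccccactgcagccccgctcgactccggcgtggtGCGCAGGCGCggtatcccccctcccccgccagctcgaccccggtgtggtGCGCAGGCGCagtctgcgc
SDHB, complex II iron-sulfur subunit, chr1:17054139-17054175, minus strand: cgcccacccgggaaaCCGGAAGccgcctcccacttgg
SDHD, complex II membrane anchor, chr11:112086748-112086817, plus strand: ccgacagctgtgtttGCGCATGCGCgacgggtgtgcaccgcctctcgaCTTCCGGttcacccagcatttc
UQCRC1, complex III core protein, chr3:48609669-48609708, minus strand: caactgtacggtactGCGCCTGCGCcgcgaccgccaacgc
ATP5F1C, ATP synthase gamma subunit, chr10:7788140-7788176, plus strand: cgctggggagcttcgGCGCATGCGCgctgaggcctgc
ATP5PD, ATP synthase peripheral stalk, chr17:75047049-75047085, minus strand: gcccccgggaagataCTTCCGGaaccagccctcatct

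SDHA held 4 copies of the NRF1 core within 181 bases, and SDHD held 1 copy of each core. The NRF1 core stood in 14 of the 68 promoters (20.6%), against 5.53% of all 27305 promoters of the same length. The ETS core stood in 16 of the 68 (23.5%), against 8.82% of all promoters. The set of all promoters was not filtered by expression or gene type, so it differs from the 68 in more than pathway. At least 1 of the cores was found in 28 of the 68, and both in 2, SDHD and UQCR11 (the latter named after its values were seen). These matches describe letters in a window and are not evidence of binding.

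Of the 91 genes, 83 passed the filter on low counts and were tested with edgeR's quasi-likelihood test; calls required an adjusted p under 0.05 over all 17299 tested genes. In siTCF19, 28 of the 83 fell (33.7%) and 7 rose (8.43%), where 20.8% of all tested genes fell and 20.7% rose, 41.5% in either direction. The median log2 fold change of the 83 was -0.09 and that of all tested genes was 0.00. Values below 0 were seen in 72.3% of the 83 and in 49.8% of all tested genes. The 3 libraries of 1 group lay wholly outside those of the other for 40 of the 83 (33 with siTCF19 below, 7 above), where 49.2% of all tested genes showed such separation. Most changes were small: 32 of the 35 called genes moved by less than 1.5-fold. The authors' deposited table lists 23 of these genes as lower and 4 as higher, and all of those carried the same call here.

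The count of falls depended on the scaling and on which libraries were kept. With library-size-only scaling, 15 genes fell and 14 rose, and the median of the 83 was -0.03 beside 0.06 for all genes. Without siTCF19 replicate 2, 18 fell and 10 rose, with a median of -0.05, and without siNC replicate 1 or 2 the falls were 20 and 21. In siTCF19, replicate 2 was the lowest of its group for 54 of the 83 genes (65.1%), against 34.9% of all tested genes. Across 15 alternative fits, 13 of the 28 falls held in every one: NDUFB2, NDUFA11, NDUFV2, NDUFA6, SDHB, CYC1, UQCRC1, UQCRC2, COX7B, ATP5F1A, ATP5F1B, ATP5F1D and ATP5MC3. Of the 7 rises, 4 held in every one: ATP5IF1, COX7A2L, COX7B2 and NDUFA4.

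**Figure D1:**
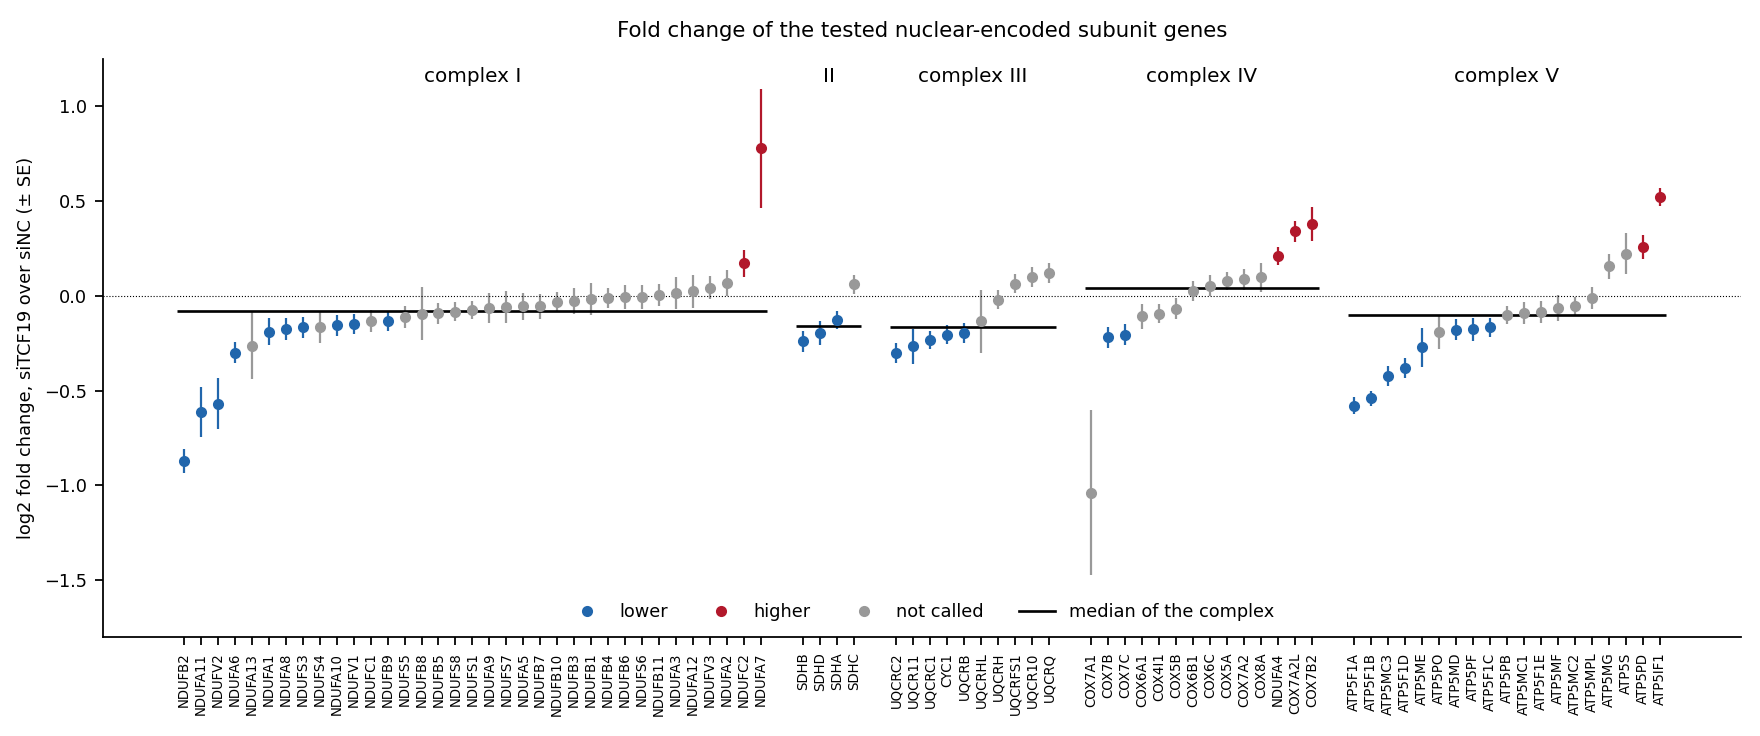
Log2 fold change (siTCF19 over siNC, y axis) of the 83 tested genes, 1 of them not drawn, ordered within each complex; points are edgeR estimates, bars are standard errors, blue and red mark genes called lower and higher, and black lines are medians over all tested genes of the complex. The medians lie between -0.16 and 0.04, and ATP5F1A and ATP5F1B (-0.58 and -0.54) stand at the low end of complex V with ATP5IF1 (0.52) at the high end.

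Complex I oxidises NADH. Of its 36 tested genes, 10 fell (27.8%) and 2 rose (5.56%), where 20.8% of all tested genes fell and 20.7% rose. The median log2 fold change was -0.08. Among the 7 core subunit genes tested, whose products carry the flavin and the iron-sulfur centres, 3 fell (42.9%). Of the 29 accessory genes 7 fell (24.1%, near the share of all genes) and 2 rose (6.9%). The falls of the whole complex numbered 5 without siNC replicate 2, 6 without siTCF19 replicate 2 and 4 with library-size-only scaling. The largest fall was that of NDUFB2, an accessory subunit of the distal membrane arm (chr7:140690777-140722790, hg38). NDUFB2 stood at 80.1, 88.9 and 83.1 CPM in siNC and at 42.3, 45.6 and 50.03 CPM in siTCF19. Every siTCF19 library was below every siNC library, and the log2 fold change was -0.87 ± 0.07 (adjusted p = 1.17e-14). Of the other 10 tested genes of that arm 1 fell, and the median of the arm was -0.03. NDUFA11, an accessory subunit of the membrane domain, stood at 17.0, 18.1 and 14.8 CPM in siNC and at 11.3, 7.81 and 13.5 CPM in siTCF19 (log2 fold change -0.61 ± 0.13, adjusted p = 0.000172). NDUFA6, an accessory subunit, fell from 89.1 ± 4.74 to 72.4 ± 1.35 CPM (SD, n = 3; -0.30 on the log2 scale, adjusted p = 3.96e-05 by edgeR).

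The core subunits of the NADH-oxidising tip moved by different amounts. NDUFV2, an iron-sulfur subunit, stood at 10.2, 10.7 and 10.7 CPM in siNC and at 6.71, 8.15 and 6.45 CPM in siTCF19 (-0.57 ± 0.13, adjusted p = 0.000597). NDUFV1, which binds the flavin and takes electrons from NADH, was at 162, 182 and 164 CPM in siNC and at 155, 147 and 156 CPM in siTCF19 (-0.15 ± 0.05, adjusted p = 0.0191). The groups did not overlap for either gene, but the NDUFV1 call was lost when siNC replicate 2 (adjusted p = 0.196) or siTCF19 replicate 2 (0.0975) was left out. NDUFS3, a core subunit of the arm that leads electrons to quinone, fell from 96.4 ± 0.68 to 85.9 ± 1.80 CPM (-0.17 ± 0.05, adjusted p = 0.0118). With library-size-only scaling NDUFV1 and NDUFS3 were not called (adjusted p = 0.167 and 0.112). NDUFS1, which holds several iron-sulfur clusters, was at 196 ± 6.16 and 186 ± 3.20 CPM and was not called (-0.08 ± 0.05, adjusted p = 0.213). NDUFS7 and NDUFS8, iron-sulfur core subunits near the quinone site, were not called at log2 fold changes of -0.06 and -0.08.

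The 2 rises in complex I were weakly held. NDUFC2, an accessory subunit, was at 46.2, 41.1 and 41.7 CPM in siNC and at 51.8, 45.4 and 48.0 CPM in siTCF19, with overlapping groups (0.17 ± 0.07, adjusted p = 0.047). NDUFA7 was at 1.31, 1.21 and 1.03 CPM in siNC and at 1.90, 1.67 and 2.51 CPM in siTCF19 (0.78 ± 0.31, adjusted p = 0.0425). NDUFC2 was not called without siNC replicate 2 or 3 or without siTCF19 replicate 1 or 3 (adjusted p = 0.162, 0.153, 0.242 and 0.057). NDUFA7 kept its call only when siTCF19 replicate 2 was the library left out; the other 5 omissions gave an adjusted p of 0.057 to 0.204. DESeq2 called neither gene. The exons of several complex I genes overlap those of other genes: 35.9% of the exonic bases of NDUFB2 (ADCK2, BRAF and NDUFB2-AS1), 33.5% of NDUFA7, 28.4% of NDUFV2, 22.4% of NDUFS3, 18.1% of NDUFC2 and 12.1% of NDUFA11. On the same strand alone the overlap was 1.44% for NDUFB2, 32.3% for NDUFA7 and 28.4% for NDUFV2. It was 19.6% for NDUFS3, 16.3% for NDUFC2 and 9.65% for NDUFA11. A strand setting could separate only overlap on the opposite strand, and that setting is unknown here. The levels of these genes are therefore uncertain. Over all complexes, 12 of the 28 falls and 3 of the 7 rises were in genes with at least 10% such overlap, as were 32 of the 83 tested genes.

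Complex II, succinate dehydrogenase, feeds electrons from the citric acid cycle into the chain. Of its 4 genes, 3 fell (75%) and none rose, where 20.8% of all tested genes fell and 20.7% rose. An unadjusted p under 0.05, DESeq2 and limma-voom each also gave 0 rises. SDHB, the iron-sulfur subunit, stood at 118, 112 and 117 CPM in siNC and at 104, 90.6 and 99.4 CPM in siTCF19 (-0.24 ± 0.06, adjusted p = 0.000454). SDHA, the flavoprotein that oxidises succinate, fell from 292 ± 9.35 to 268 ± 6.75 CPM (-0.13 ± 0.05, adjusted p = 0.0224). SDHD, a membrane anchor, fell from 60.5 ± 2.64 to 52.9 ± 1.19 CPM (-0.19 ± 0.06, adjusted p = 0.0111). The siTCF19 libraries were below all siNC libraries for each of the 3, whereas SDHC, the other anchor, overlapped between groups at 106 ± 1.65 and 110.2 ± 3.22 CPM and was not called (adjusted p = 0.381). SDHA lost its call when siNC replicate 2 (adjusted p = 0.107), siTCF19 replicate 1 (0.109) or siTCF19 replicate 2 (0.0609) was left out. SDHD lost it without siNC replicate 1 (adjusted p = 0.0755). With library-size-only scaling SDHB alone was called among the 4. The promoters of the 3 genes that fell are among those printed with NRF1 or ETS cores, a choice made by hand, and RefSeq gave none for SDHC. Over all members, 6 of the 38 promoters of genes not called held the NRF1 core and 9 the ETS core. A link between cores and falls was not tested.

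Complex III carries electrons from ubiquinol to cytochrome c. Of its 10 genes, 5 fell (50%) and none rose, where 20.8% of all tested genes fell and 20.7% rose. The median log2 fold change was -0.16. An unadjusted p under 0.05 gave 1 rise, and DESeq2 and limma-voom 0. The core proteins UQCRC1 and UQCRC2, which form the matrix-facing base of the complex, fell together. UQCRC1 stood at 342, 386 and 357 CPM in siNC and at 303, 299 and 319.7 CPM in siTCF19 (-0.23 ± 0.05, adjusted p = 7.64e-05). UQCRC2 stood at 146, 133 and 136 CPM in siNC and at 113, 109 and 115 CPM in siTCF19 (-0.30 ± 0.05, adjusted p = 6.33e-06). Neither gene showed overlap between the groups. Of the catalytic subunits encoded in the nucleus, CYC1 (cytochrome c1) fell from 269 ± 12.9 to 233 ± 18.8 CPM (-0.20 ± 0.05, adjusted p = 0.00116). The Rieske iron-sulfur protein gene UQCRFS1 was at 120.1 ± 0.67 and 126 ± 3.23 CPM, with every siTCF19 library above every siNC library, and was not called (0.06 ± 0.05, adjusted p = 0.324). With library-size-only scaling UQCRFS1 was called higher (adjusted p = 0.0405). UQCRB, a small subunit, fell (-0.19 ± 0.05, adjusted p = 0.00259) but not without siNC replicate 1 (adjusted p = 0.0519). Without siNC replicate 1, 3 genes of the complex fell, and without siTCF19 replicate 2 there were 2 rises. UQCRHL is a near copy of UQCRH, so reads may be split between them.

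Complex IV is cytochrome c oxidase. Of its 14 tested genes, 2 fell (14.3%) and 3 rose (21.4%), where 20.8% of all tested genes fell and 20.7% rose. The median was 0.04. The test of a difference between complexes was not made. The falls were those of COX7B and COX7C, small subunits near the catalytic core. COX7B stood at 159, 150.02 and 165 CPM in siNC and at 147, 124 and 136 CPM in siTCF19 (-0.22 ± 0.05, adjusted p = 0.00123). COX7C stood at 265, 279 and 253 CPM in siNC and at 244, 199.8 and 246 CPM in siTCF19 (-0.20 ± 0.06, adjusted p = 0.00269). All siTCF19 libraries were below all siNC libraries for both genes, but siTCF19 replicate 2 was far the lowest for COX7C. Without that library COX7C was not called (adjusted p = 0.0836), nor was it by DESeq2 (adjusted p = 0.117). COX4I1, the regulatory subunit isoform of most tissues, was at 280.0 ± 8.25 and 262 ± 17.5 CPM and was not called. Library-size-only scaling gave 5 rises in the complex, and leaving out siTCF19 replicate 2 left 1 fall.

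The 3 rises in complex IV were in COX7A2L, NDUFA4 and COX7B2; with library-size-only scaling the common subunit genes COX5A and COX7A2 were also called higher (adjusted p = 0.0155 and 0.0295). COX7A2L, whose product joins complexes III and IV into supercomplexes, stood at 87.9, 80.8 and 79.6 CPM in siNC and at 103, 104 and 107 CPM in siTCF19 (0.34 ± 0.06, adjusted p = 2.35e-06). NDUFA4 stood at 189, 182 and 179 CPM in siNC and at 216, 215 and 206 CPM in siTCF19 (0.21 ± 0.05, adjusted p = 0.000303). COX7B2, a paralog of COX7B, stood at 20.7, 18.7 and 22.1 CPM in siNC and at 27.1, 24.7 and 28.2 CPM in siTCF19 (0.38 ± 0.09, adjusted p = 0.000639). The groups did not overlap for any of the 3. COX7B2 and COX7B thus moved in opposite directions: COX7B2 gave 32.7% ± 0.77 of the pair's TPM (counts per gene length) in siNC and 42.4% ± 1.501 in siTCF19 (SD, n = 3). On counts, not divided by the merged lengths (3024 bases for COX7B, 807 for COX7B2), its share was 11.5% ± 0.35 and 16.4% ± 0.84. The share rose on both scales, but its size depends on the lengths. This pair was chosen after its values were seen, and its share was not tested. COX7A1, the heart and muscle isoform, was at 1.51, 0.64 and 1.35 CPM in siNC and at 0.82, 0.40 and 0.45 CPM in siTCF19; its groups overlapped and it was not called (-1.04 ± 0.44, adjusted p = 0.0528). COX7A1 was called lower without siNC replicate 2 or siTCF19 replicate 1 (adjusted p = 0.02 and 0.0338).

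Within gene families, 8 paralog shares of TPM were compared between groups by exact two-sided permutation tests, for which 3 libraries against 3 cannot give a p below 0.1. COX7A2 gave 77.8% ± 0.47 of the COX7A family in siNC and 75.4% ± 1.12 in siTCF19 (exact p = 0.1, adjusted 0.267), and COX7A2L 20.6% ± 0.65 and 23.9% ± 1.37 (exact p = 0.1, adjusted 0.267). NDUFA4 made up 99.6% and 99.5% of its pair with NDUFA4L2. The size of a TPM share depends on the merged gene lengths: on counts, COX7A2 gave 56.1% ± 0.79 in siNC and 51.9% ± 1.76 in siTCF19. The tissue-restricted isoforms COX4I2, COX6A2, COX6B2 and COX8C did not pass the filter: COX6A2 had 0 counts in all 6 libraries, which allows a level of up to 0.19 to 0.206 CPM (3 counts; counting error only), and COX6B2 had at most 10 counts in a library. Also untested were NDUFA4L2 (6 to 19 counts), ATP5MGL (2 to 8 counts) and the readthrough genes NDUFC2-KCTD14 (0 counts) and ATP5MF-PTCD1 (2 to 7 counts).

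Complex V is ATP synthase. Of its 19 tested genes, 8 fell (42.1%) and 2 rose (10.5%), where 20.8% of all tested genes fell and 20.7% rose. The median log2 fold change was -0.10. Without siNC replicate 1 or without siTCF19 replicate 2, 5 fell, without siTCF19 replicate 3 the rises were 4, and library-size-only scaling gave 4 falls and 4 rises. The F1 head is the catalytic part: alternating alpha and beta subunits surround a central stalk of gamma, delta and epsilon. Of these 5 genes 4 fell, and their median was -0.38. ATP5F1B, the catalytic beta subunit (chr12:56638175-56646068), stood at 1792, 1909 and 1762 CPM in siNC and at 1240.5, 1235 and 1279 CPM in siTCF19 (-0.54 ± 0.04, adjusted p = 1.11e-14). ATP5F1A, the alpha subunit (chr18:46080248-46104334), stood at 667, 695 and 638 CPM in siNC and at 428, 451 and 460.5 CPM in siTCF19 (-0.58 ± 0.04, adjusted p = 2.24e-14). For both, the gap between the groups was several times the spread within them. ATP5F1D, the delta subunit, fell from 207 ± 10.7 to 159 ± 8.80 CPM (-0.38 ± 0.05, adjusted p = 5.28e-08), and ATP5F1C, the gamma subunit, from 178 ± 5.75 to 159 ± 7.80 CPM (-0.17 ± 0.05, adjusted p = 0.00648). Library-size-only scaling left ATP5F1C uncalled (adjusted p = 0.0839). ATP5F1E, the epsilon subunit, was at 135 ± 0.19 and 128 ± 14.1 CPM and was not called (adjusted p = 0.254), but it was called lower without siTCF19 replicate 1 (adjusted p = 0.0389).

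The ATP5MC genes encode the same mature c subunit of the membrane rotor with different targeting sequences. ATP5MC3 stood at 134, 141 and 129.98 CPM in siNC and at 104, 101 and 97.0 CPM in siTCF19 (-0.42 ± 0.05, adjusted p = 9.84e-09). ATP5MC1 was at 97.1 ± 6.74 and 91.3 ± 6.28 CPM, and ATP5MC2 at 199.6 ± 2.05 and 192 ± 8.85 CPM; neither was called. ATP5MC3 gave 18.6% ± 0.45 of the family's TPM in siNC and 15.2% ± 0.87 in siTCF19, with no overlap (exact p = 0.1, adjusted 0.267). ATP5MC2 gave 46.8% ± 1.55 and 49.2% ± 0.96 (exact p = 0.2, adjusted 0.32), and ATP5MC1 34.7% ± 1.42 and 35.6% ± 1.53 (exact p = 0.6, adjusted 0.6).

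Against the direction of the head, ATP5IF1 and ATP5PD rose. ATP5IF1, an inhibitor that blocks ATP hydrolysis by the enzyme, stood at 191, 191 and 186 CPM in siNC and at 260.3, 268 and 288 CPM in siTCF19 (0.52 ± 0.05, adjusted p = 4.33e-12). The ratio of ATP5IF1 to ATP5F1B on TPM was 0.111, 0.105 and 0.110 in siNC and 0.219, 0.227 and 0.235 in siTCF19, 2.09-fold higher; this ratio was chosen after its values were seen and was not tested. The ratio of ATP5F1A to ATP5F1B was 0.0779 ± 0.0011 and 0.0759 ± 0.0022 on the same scale. TPM divides by merged gene lengths, 10908 bases for ATP5F1A and 2322 for ATP5F1B, so the size of this ratio depends on them. On CPM, which is not divided by length, the siNC means were 667 and 1821. Only the comparison of a ratio between groups is free of the lengths. ATP5PD, subunit d of the peripheral stalk, stood at 132, 124 and 117 CPM in siNC and at 164, 127 and 156 CPM in siTCF19, with overlapping groups (0.26 ± 0.06, adjusted p = 0.000835). DESeq2 did not call ATP5PD (adjusted p = 0.0839), and 19.1% of its exonic bases overlap other genes. Of the other stalk genes, ATP5PF fell (-0.18 ± 0.06, adjusted p = 0.0145; not called without siNC replicate 1, without siTCF19 replicate 2 or with library-size-only scaling), and ATP5PB and ATP5PO were not called at -0.10 and -0.19.

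**Figure D2:**
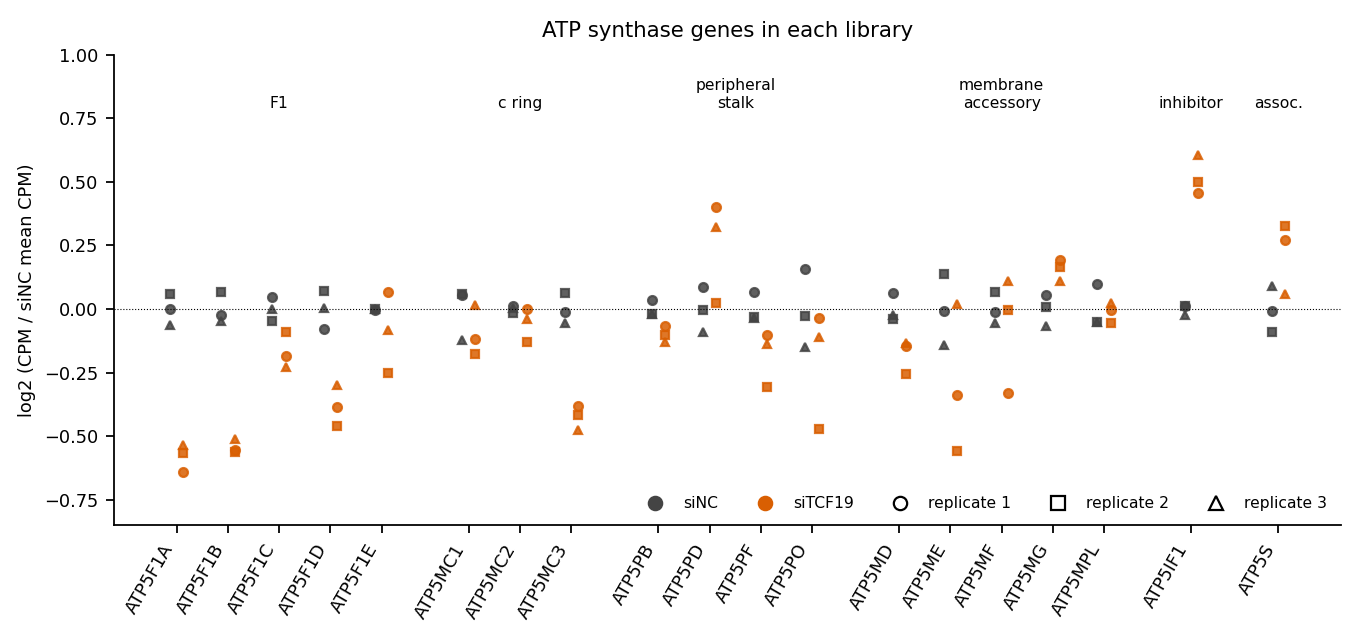
Each tested ATP synthase gene in each library, as log2 of CPM over the siNC mean (y axis), grouped by part of the enzyme; grey is siNC, orange siTCF19, and the marker shape gives the replicate. The siTCF19 libraries of ATP5F1A, ATP5F1B, ATP5F1D and ATP5MC3 lie below all siNC libraries and those of ATP5IF1 above, while ATP5PO, ATP5ME and ATP5F1E spread widely within siTCF19.

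Summing CPM over the genes of a complex gives a summed level, in which abundant genes weigh most. The CPM were scaled by TMM factors (0.969 to 0.988 in siNC, 1.020 to 1.023 in siTCF19) and not divided by gene length. The sums are therefore not shares of all reads or transcripts. For complex V the sums were 4467, 4586 and 4331 CPM in siNC and 3609, 3527 and 3704 CPM in siTCF19, 81.0% of the siNC mean. ATP5F1B supplied 40.8% of that sum in siNC, and without it the siTCF19 mean was 89.4% of siNC. On this scale the sums of complexes I, II and III were 93.0%, 92.1% and 92.2% of siNC with no overlap between groups. On the authors' FPKM, the sums of complexes I (93.8%) and III (95.9%) overlapped between groups, and those of complexes II and V did not. The sum of complex IV was 1927 ± 33.1 CPM in siNC and 1927 ± 108 CPM in siTCF19 (SD, n = 3), with overlap. On TPM, the sums overlapped between groups for complexes I (97.9%), III (100.1%) and IV (105%) and for complex V without ATP5F1B (98.6%), and did not for complexes II (92.5%) and V (85.6%). Ratios on TPM lay 0.06 higher on the log2 scale than ratios on CPM over 10360 genes above 10 CPM. Over the 83 genes together fold change did not follow level: Spearman's rho between them was 0.00 and Pearson's r was 0.04. For the 19 genes of complex V they were -0.21 and -0.39, and for the other 64 genes 0.09 and 0.17. These values are a description across genes of the same libraries.

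**Figure D3:**
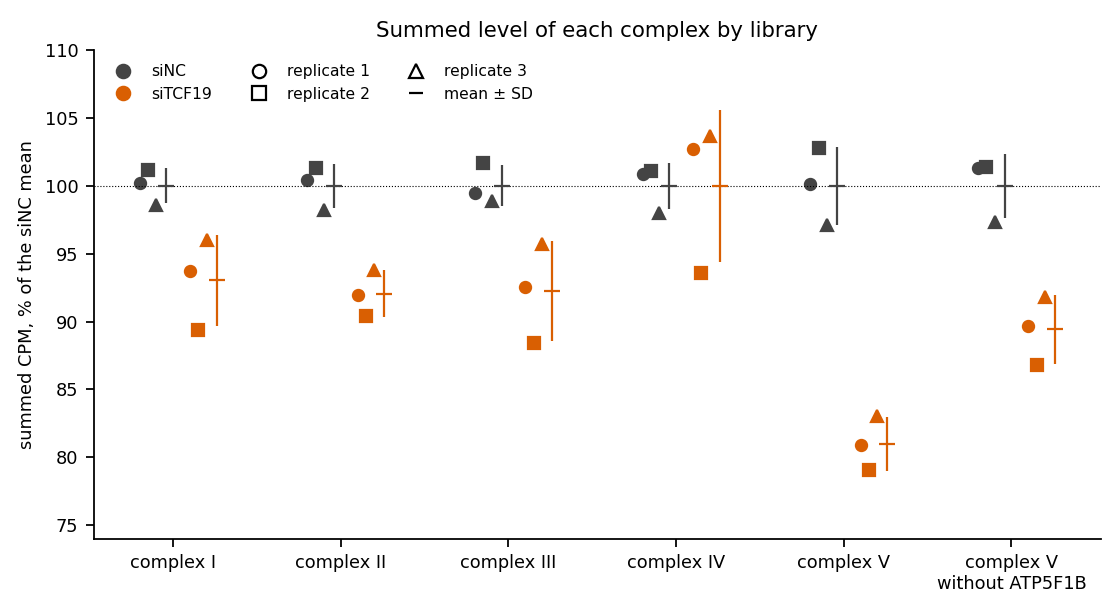
Summed CPM of each complex in each library as a percent of the siNC mean (y axis, which does not start at 0); points are libraries, and the bars beside them mean ± SD (n = 3). The siTCF19 mean of complex V is at 81.0%, that of complexes I to III at 92.1% to 93.0% and that of complex IV level with siNC, and siTCF19 replicate 2 is the lowest library throughout.

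The other genes of the pathway were read in 10 lists. Of 13 biogenesis regulator genes tested, 11 fell and 0 rose, with a median log2 fold change of -0.28; an unadjusted p under 0.05 gave 1 rise, and DESeq2 9 falls and 0 rises. POLRMT, the mitochondrial RNA polymerase, fell from 287 ± 5.46 to 152 ± 6.91 CPM (-0.92 ± 0.05, adjusted p = 1.24e-19), and the coactivator gene PPRC1 from 109.6 ± 3.02 to 82.6 ± 0.78 CPM (-0.41 ± 0.05, adjusted p = 3.69e-08). NRF1 and GABPB1 were called lower at log2 fold changes of -0.34 and -0.28, and GABPA was not called at 0.08 (these 3 fall outside the rule for named genes and were added because their factors' cores were searched). Of the 21 genes called lower that had a promoter, 7 held the NRF1 core and 6 the ETS core; of the 38 not called, 6 and 9 did; and of the 5 called higher, 0 and 1 did.

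The 13 subunit genes of mitochondrial DNA did not all move the same way. Of these, 4 fell (30.8%) and 7 rose (53.8%), where 20.8% of all tested genes fell and 20.7% rose. Of the 7 complex I genes 6 rose, among them MT-ND6 from 602 ± 10.5 to 812 ± 57.3 CPM (0.43 ± 0.04, adjusted p = 1.26e-10) and MT-ND1 from 2496 ± 69.6 to 3064 ± 188 CPM (0.30 ± 0.04, adjusted p = 9.29e-08). All 3 complex IV genes fell, including MT-CO1 (-0.17 ± 0.03) and MT-CO3 (-0.37 ± 0.04), and so did MT-ATP6 of complex V (-0.33 ± 0.04). MT-ATP8, also of complex V, was not called (-0.05 ± 0.10, adjusted p = 0.721 by edgeR). MT-CYB of complex III was called higher by a small margin (0.09 ± 0.04, adjusted p = 0.0497 by edgeR). In complex I, 2 of 36 nuclear genes rose where 6 of 7 of mitochondrial DNA did, and complex V genes of both genomes had members that fell. Whether the library preparation captured the mitochondrial transcripts evenly was not tested.

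Of 56 tested assembly factor genes, 12 fell (21.4%) and 7 rose (12.5%), where 20.8% of all tested genes fell and 20.7% rose. The share that fell was thus near that of all genes. The complex I list among them includes NDUFAB1, itself a complex I subunit gene, which was called lower (-0.19 ± 0.06, adjusted p = 0.00424 by edgeR). Its symbol does not match the rule for members, so it is absent from the complex I counts above. Those of complex I counted 6 falls and 1 rise of 19, led by NDUFAF2, an assembly chaperone, from 36.6 ± 1.94 to 15.9 CPM (-1.20 ± 0.09, adjusted p = 5.35e-15), while ACAD9 rose (0.35 ± 0.06). BCS1L, which inserts the Rieske protein into complex III, fell from 81.1 ± 1.99 to 56.1 ± 5.10 CPM (-0.53 ± 0.06, adjusted p = 3.66e-09). ATPAF1, an F1 assembly chaperone that binds the beta subunit, rose from 76.0 ± 4.18 to 106 ± 4.52 CPM (0.48 ± 0.06, adjusted p = 3.27e-09), the 1 called gene of 5 in its list. Genes of cytochrome c and coenzyme Q counted 4 falls (25%) and 5 rises (31.25%) of 16. Those of the citric acid cycle counted 11 falls (61.1%) and 3 rises (16.7%) of 18 (median -0.14). Those of mitochondrial import counted 8 falls (57.1%) and 1 rise (7.14%) of 14 (median -0.14).

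**Figure D4:**
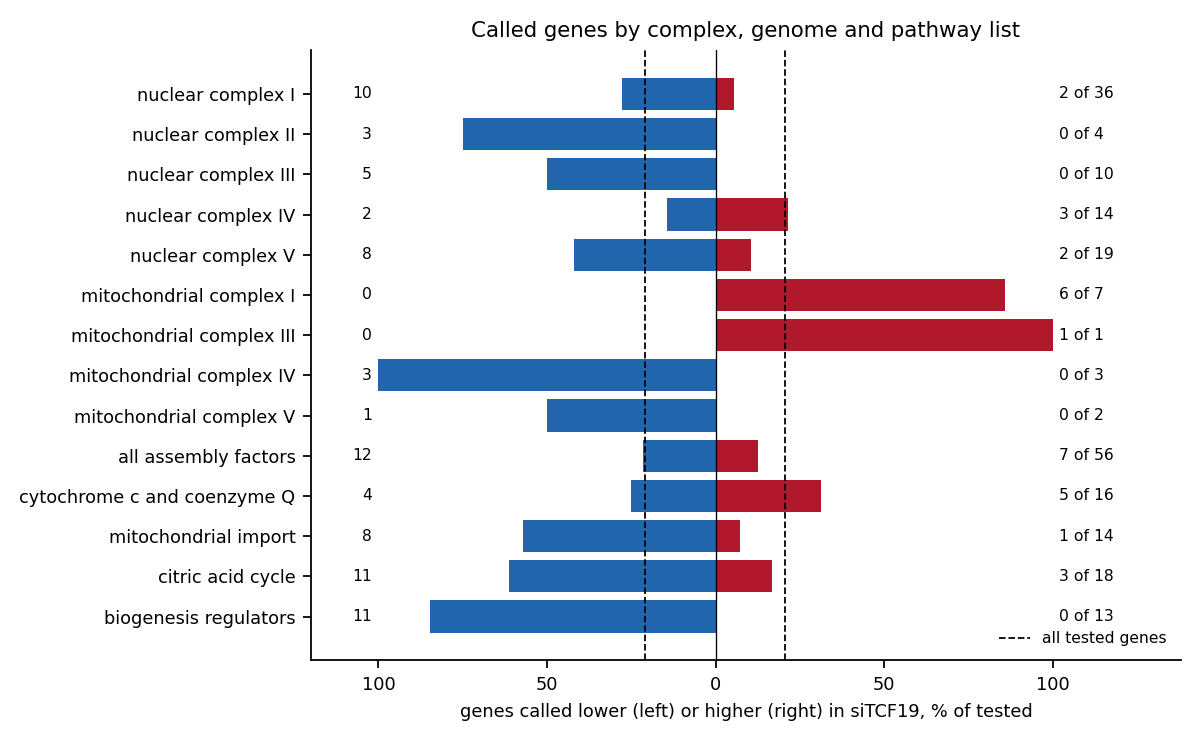
Share of tested genes called lower (blue, to the left) and higher (red, to the right) in siTCF19, in percent of the genes tested in each list (x axis), with the number called lower at the left edge and the number called higher of those tested at the right edge; dashed lines are all tested genes (20.8% lower, 20.7% higher). Biogenesis regulators (11 of 13), nuclear complex II (3 of 4) and the citric acid cycle (11 of 18) reach furthest to the lower side among lists of nuclear genes, nuclear complex IV stays short of the dashed line there, and mitochondrially encoded complex I genes (6 of 7) reach beyond it on the higher side.

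Earlier work on these same libraries singled out the words TGGTCAA and GGTCAAA in 3' UTRs (GENCODE release 29 transcripts with a UTR of at least 50 bases), so their presence is given as a description that supports nothing. Among the called genes with the largest falls, 3 carry a word, shown in capitals with 10 bases or fewer on each side.
NDUFB2, chr7:140706631-140706637, plus strand, in 7 of 10 transcripts: taaagtggctTGGTCAAgaatgagaa
NDUFA11, chr19:5894791-5894797, minus strand, in 1 of 3 transcripts: gcggcctcccTGGTCAAgatgggccgg
ATP5MC3, chr2:175177450-175177457, minus strand, in 1 of 3 transcripts: tgttgcttctTGGTCAAActtttcccat

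Of the 83 tested genes, 6 carry a word, and the median log2 fold change of the 6 was -0.26. The 3 printed fell. The other 3, NDUFB5 (-0.09), NDUFA5 (-0.06) and ATP5S (0.22), were not called and are not printed. Of the 77 without a word, 25 fell and 7 rose, with a median of -0.08, and ATP5F1A and ATP5F1B are among them. Over all tested protein-coding genes with an annotated 3' UTR, 30.7% of 1832 carriers and 23.5% of 11323 others fell.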

How the data were processed

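RNA-seq was analysed from 6 libraries, siNC and siTCF19 with 3 each. The authors deposited 1 table of whole-number counts and of FPKM per gene and library. Per the file headers it also holds gene lengths and the authors' comparison, with normalized signal means, log2 fold changes, and raw and adjusted p-values. HISAT2 2.0.5, featureCounts 1.5.0-p3 and hg38 are named, per the submitters' processing notes. Strand setting, handling of multiply matching reads and the comparison's tool are not given in the sources. All 58735 identifiers, starts and ends matched GENCODE release 29.

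The deposited counts were filtered with filterByExpr (17299 genes), scaled by TMM and tested with edgeR 4.0.16 (glmQLFit, glmQLFTest) in R 4.3.3, group being the only term, with Benjamini-Hochberg adjustment over all tested genes. TPM was computed from counts and gene length, a merged-model length that can exceed any transcript. Errors are SDs of levels over 3 libraries and SEs of fold changes. Alternatives were other scalings (RLE, upper-quartile, library-size-only), other filters (none, or 1 CPM in 3 libraries), protein-coding genes only, the replicate number as a block, DESeq2 1.42.0, limma-voom (limma 3.58.1), each library left out, and an adjusted p under 0.01. The fit was tested on simulated data with 200 changed genes: 93% of those at a log2 fold change of 0.5 in size and 100% at 1 were recovered, with 9 false calls over the 16985 genes tested. The changed genes were well counted and moved equally in both directions. Changes under 0.5, low counts and a share of changed genes as large as in these data were not simulated. Tables and figures were made in Python 3.11.15.

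The members and gene lists were chosen with earlier results of these data known. Named are core subunits, up to 4 called members per complex and direction by lowest p, paralog families, members moving against their complex and untested members, and up to 3 called genes per other list and direction; some are not reported here.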

Additional observations from a re-analysis of the deposited data

How the results depend on the processing

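Fits kept TCF19 lower, and none of the 68 called among 81 named genes changed sign, whereas the uncalled NDUFS7, COX6B1, ATP5F1E and ATP5MC2, all near 0, did in some; 14 of the 68 lost the call in at least 1 alternative and 5 others gained one. With library-size-only scaling, 15 members fell and 14 rose (falls: complex I 4, II 1, V 4; rises: III 3, IV 5, V 4). At an adjusted p under 0.01, 17 fell (I 4, II 1) and none of complex I rose (0). DESeq2 gave 4 rises in all (I 0, V 1) and 1 fall in complex IV. Complex III had 1 rise with upper-quartile scaling, with a filter of 1 CPM or with protein-coding genes only, and complex I had 0 rises with no filter. The replicate block gave 26 falls and 5 rises, with 0 rises in complex I. Same-numbered libraries did not deviate together from their group means (correlations 0.0086, -0.0241 and 0.0210). No shared deviation by number was thus seen, but these values cannot tell whether the samples were prepared in pairs. Leaving out 1 library gave 18 to 28 falls and 5 to 10 rises; by complex, falls ran from 5 to 10 (I), 2 to 3 (II), 3 to 5 (III), 1 to 3 (IV) and 5 to 9 (V), and rises from 0 to 2 (I), 0 to 2 (III), 3 to 4 (IV) and 2 to 4 (V). Chosen after seeing the data: without members with at least 10% of exonic bases overlapping other genes, 16 fell and 4 rose (falls: I 3, V 5; rises: I 0, V 1), and without carriers of the 3' UTR words 25 fell and 7 rose. The causes were not tested. Depth limits the genes at about 1 CPM, where NDUFA7 and COX7A1 lie.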
